A study of Drosophila melanogaster with 15 samples.

Results

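The genes ple, Ddc, Pu, Vmat and DAT, for dopamine synthesis and transport, were followed across the 5 sample groups of a Drosophila melanogaster RNA-seq series. They were found by exact match of the gene symbol, letter case included, and make up 5 of the 15682 gene symbols in the count files. The symbol DAT, the dopamine transporter gene, is a separate entry from Dat and is also an older synonym of another gene in the RefSeq annotation. The series comprised 15 libraries of total RNA that the labels assign to dissected skeletal muscle, 3 in each group, all in the w1118 strain background. The groups were control, dpp overexpression, control RNAi, and a pair of groups named dpp RNAi construct 1 and dpp RNAi construct 2. The product of dpp, Decapentaplegic, is a secreted signal of the bone morphogenetic protein family, and the series title links Dpp made by muscle with dopamine synthesis in the brain. The labels give no driver line, promoter, sex, age or pooling of animals, list RNAi as the treatment of all 15 libraries, and do not state that libraries of a group came from separate flies. The p-values below therefore measure the spread between libraries, which may be technical.

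Dopamine is made from the amino acid tyrosine. Tyrosine hydroxylase, encoded by ple, carries out the first and rate-limiting step with tetrahydrobiopterin as its cofactor, and dopa decarboxylase, encoded by Ddc, converts the resulting dopa into dopamine. Pu encodes GTP cyclohydrolase, the enzyme that opens the synthesis of tetrahydrobiopterin and also of the pterin pigments of the fly eye. Vmat loads dopamine and other monoamines into synaptic vesicles, and DAT takes released dopamine back up from the extracellular space. In flies, ple and Ddc act in dopaminergic neurons and also in the epidermis, where dopamine is a precursor for hardening and darkening of the cuticle. Transcripts of both can thus come from nervous tissue or from epidermis in a dissected sample.

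Levels are given as CPM, the counts per 1e+06 gene counts of a library after TMM scaling. Gene counts per library, in units of 1e+06, lay between 36.81 and 53.33 in control, 25.54 and 56.29 with dpp overexpression, 31.77 and 33.29 in control RNAi, 11.24 and 18.08 with construct 1, and 16.72 and 22.4 with construct 2. The lowest count of any of the 5 genes in any library was 207, for DAT with construct 1, so that none was near the limit of 3 counts that a count of 0 would allow. dpp itself was at 66.8 ± 13.4 CPM (SD, n = 3) with dpp overexpression against 33.5 ± 1.61 CPM in control, but differed by 0.02 and -0.01 on the log2 scale between the libraries labelled dpp RNAi construct 1 and 2 and control RNAi (adjusted p = 0.942 and 0.951). A lower dpp level was thus not detected under either dpp RNAi label, and these groups are named below by their labels. The 14 sarcomere markers took 0.436 to 1.33% of scaled counts per library and the 8 photoreceptor markers 6.41 to 8.46%, so that the photoreceptor sum exceeded the sarcomere sum in all 15 libraries labelled as muscle. Library 3 of dpp overexpression stood apart, with a chi-square per degree of freedom of 60.6 and 52.1 over genes against its group. Libraries 1 and 2 of that group gave 19.4 and pairs in the other groups 5.22 to 16.3, values that are not corrected for depth. The changes of the 5 genes with dpp overexpression are also given without library 3, as are those of other genes and lists where it moved a call or a value markedly. The library codes carry a number block that dpp overexpression and control share, that both dpp RNAi groups share, and that is a different one in control RNAi. Should the block stand for a batch, its effect and that of the group cannot be told apart where dpp RNAi is set against either control group or control RNAi against control.

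Per kilobase of exon, Ddc had the highest level of the 5 genes and DAT the lowest. In control, the level per kilobase was 139 ± 6.4 CPM for Ddc, 80.3 ± 2.02 CPM for Pu, 53.9 ± 1.34 CPM for Vmat, 32.8 ± 1.14 CPM for ple and 5.69 ± 0.297 CPM for DAT (SD, n = 3). The same order held in the means of all 5 groups, with exon lengths taken from the Ensembl annotation of build BDGP6 rather than from the authors' build. Across the 15 libraries ple varied most, by a factor of 2.36 between the lowest and the highest library in CPM. That factor was 1.65 for Pu, 1.35 for Vmat, 1.30 for Ddc and 1.22 for DAT.

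**Figure D1:**
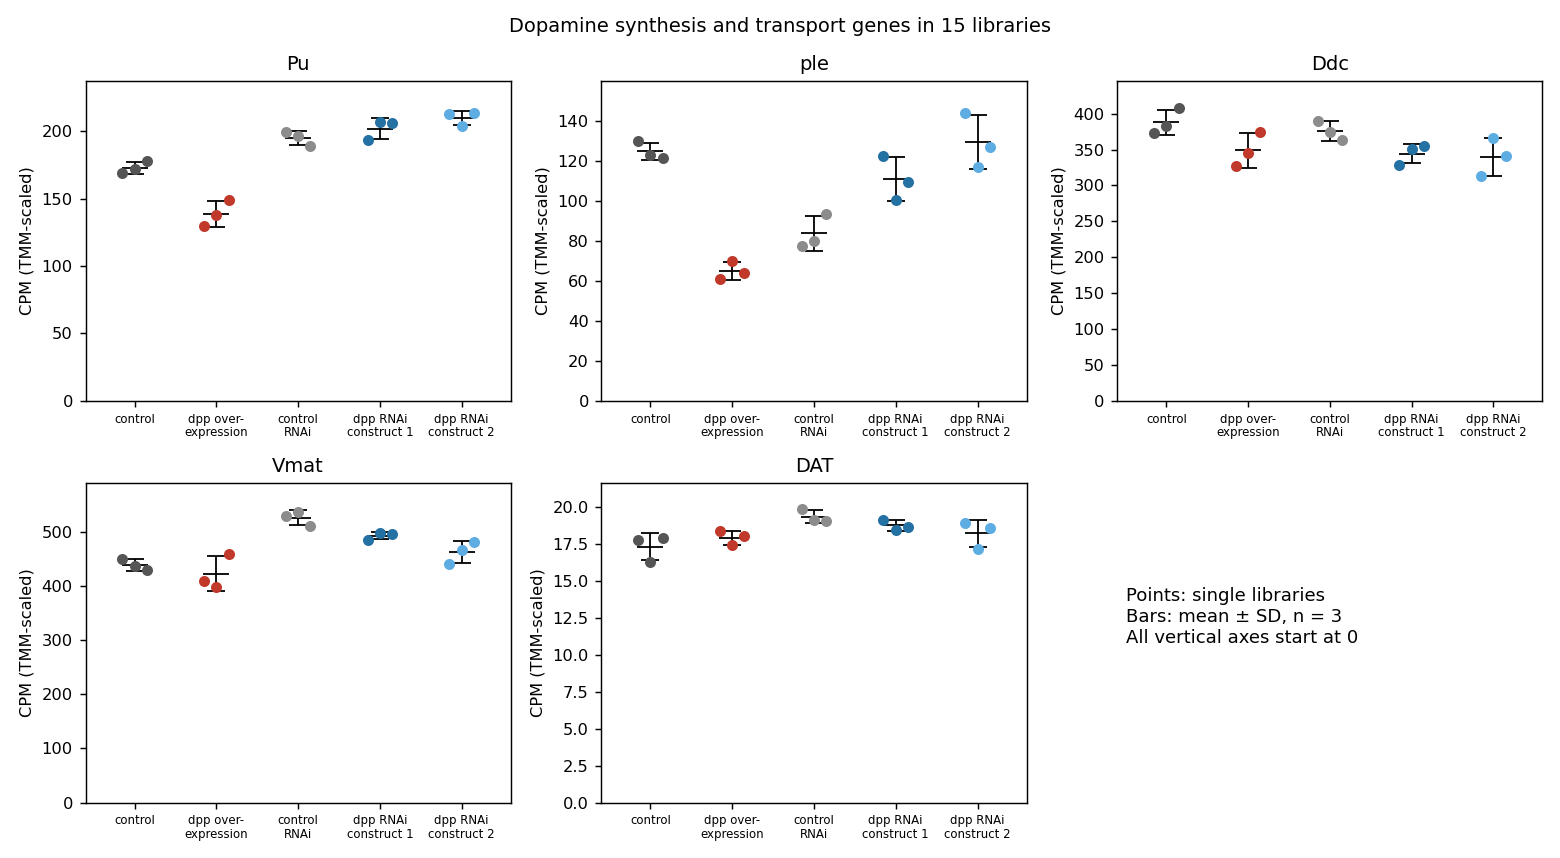
TMM-scaled CPM of Pu, ple, Ddc, Vmat and DAT (vertical axes, each starting at 0) in the 15 libraries of 5 groups (horizontal axis); points are libraries and bars are mean ± SD of 3 libraries. The 3 libraries with dpp overexpression are the lowest for ple (61.0 to 69.9 CPM) and for Pu (129.7 to 149 CPM), while DAT stays between 16.2 and 19.8 CPM in all 15.

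Pu, at the start of cofactor synthesis, was lowest with dpp overexpression. Its level was 129.7, 138 and 149 CPM in those 3 libraries and 169, 172 and 178 CPM in the control libraries. It was 199, 196 and 189 CPM in control RNAi, 193, 206 and 206 CPM with construct 1, and 212, 204 and 214 CPM with construct 2. The overexpression libraries lay below all others and the control libraries came next, both without overlap with their neighbours in the order. Control RNAi overlapped construct 1, and construct 1 overlapped construct 2. Pu fell by 0.32 ± 0.05 on the log2 scale with dpp overexpression (SE, adjusted p = 0.000229, edgeR's quasi-likelihood test), and was at -0.37 without overexpression library 3 (adjusted p = 1.68e-05). Against control RNAi the changes with construct 1 and construct 2 were 0.05 ± 0.05 (adjusted p = 0.514) and 0.11 ± 0.05 (adjusted p = 0.108). With control as the reference, Pu was higher with construct 1 (0.22 ± 0.05, adjusted p = 0.00581), construct 2 (0.28 ± 0.05, adjusted p = 0.000715) and in control RNAi (0.17 ± 0.05, adjusted p = 0.0137). The last of these was not called without control library 1 (0.16, adjusted p = 0.0538) or with library totals as the only scaling (0.08, adjusted p = 0.203).

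Transcripts of ple, which encodes tyrosine hydroxylase, moved most. The control libraries were at 129.7, 123 and 122 CPM and the dpp overexpression libraries at 61.0, 69.9 and 63.9 CPM. Control RNAi libraries were at 77.5, 80.0 and 93.6 CPM. With construct 1 the level was 122, 100.5 and 109 CPM, and with construct 2 it was 144, 117 and 127 CPM. From lowest to highest, the order was dpp overexpression, control RNAi, construct 1, control and construct 2; the lowest pair of groups stood apart from each other and from the rest, and the upper 3 overlapped. ple fell by 0.94 ± 0.09 on the log2 scale with dpp overexpression, a factor of 1.92 (adjusted p = 1.07e-06, edgeR), and was at -0.93 without overexpression library 3 (adjusted p = 9.36e-06). Against control RNAi, it rose by 0.41 ± 0.09 with construct 1 (adjusted p = 0.0039) and by 0.63 ± 0.09 with construct 2 (adjusted p = 7.69e-05). In bulk RNA, fewer cells that express a gene and less RNA of that gene per cell cannot be told apart, which holds for this and every later result.

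The rise of ple under the dpp RNAi labels depended on the control group. Against the control libraries, ple differed by -0.17 ± 0.09 with construct 1 (95% interval -0.36 to 0.02, adjusted p = 0.182, edgeR) and by 0.05 ± 0.09 with construct 2 (-0.14 to 0.24, adjusted p = 0.682). Control RNAi was itself lower than control in ple, by -0.58 ± 0.09 (adjusted p = 0.000103). In that comparison 4 of 10 tested cuticle and epidermis markers were lower and none was higher. Of all tested genes, 45.2% were called there and 24.3% were lower. The cuticle and epidermis sums were 363 to 402 CPM against 441 to 459.9 CPM. All 14 sarcomere markers and 3 of 6 tested body region markers were lower too. Of the neuronal markers 10 of 12 were higher, and of 8 glial markers 7 were higher and 1 lower. Of 8 fat body markers 3 were higher and none lower, with sums of 5828 to 6749 CPM against 2121 to 2273 CPM. Photoreceptor markers had 3 of 8 higher and none lower, and haemocyte markers 1 higher and 2 lower of 6. The part of any of these markers in the ple difference was not tested. These comparisons share their control libraries and are therefore not independent of each other. The estimate for construct 1 minus construct 2 in ple was -0.22 ± 0.09 (95% interval -0.41 to -0.03, adjusted p = 0.122).

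Ddc, the next enzyme in the pathway, did not follow ple. Its level was 373, 383 and 408 CPM in control and 327, 345 and 375 CPM with dpp overexpression. In control RNAi it was 390.1, 374 and 363 CPM, with construct 1 it was 329, 350.3 and 354 CPM, and with construct 2 it was 313, 365 and 341 CPM. Each group overlapped its neighbour in the order of means. The change with dpp overexpression was -0.15 ± 0.07 (95% interval -0.29 to -0.01, adjusted p = 0.0938, edgeR), and without overexpression library 3 it was -0.21 (adjusted p = 0.0203). Against control RNAi, Ddc differed by -0.13 ± 0.07 with construct 1 (adjusted p = 0.175) and by -0.15 ± 0.07 with construct 2 (adjusted p = 0.0845). The last of these passed the threshold with DESeq2 (-0.16, adjusted p = 0.0408), without a filter on low counts (-0.17, adjusted p = 0.0492) and without the second library of construct 2 (-0.21, adjusted p = 0.0275). Against control, Ddc differed by -0.17 ± 0.07 with construct 1 (adjusted p = 0.0693, groups without overlap), which was called with library totals as the only scaling (-0.24, adjusted p = 0.00911), without the filter (-0.19, adjusted p = 0.0476) and with only the 2 groups in the fit (-0.16, adjusted p = 0.0407). It was lower with construct 2 (-0.19 ± 0.07, adjusted p = 0.0317), a call lost without library 1 or 3 of construct 2 or control library 2 or 3, where the adjusted p lay between 0.0608 and 0.14. The annotation places exons of CG10561 on the opposite strand over 88 bases of Ddc exons, 3.15% of their length. CG10561 was at 46.6 to 63.4 CPM in the means of the 5 groups, and the strand setting of the counting is not given in the sources used here.

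The vesicular transporter gene Vmat was highest in control RNAi. It was at 529, 537 and 511 CPM there, 485, 497 and 497 CPM with construct 1, and 441, 467 and 481 CPM with construct 2. Control libraries were at 451, 437 and 429 CPM and dpp overexpression libraries at 409, 399 and 459.6 CPM. Control RNAi, construct 1 and construct 2 did not overlap, while construct 2, control and overexpression each overlapped the next. With dpp overexpression the change was -0.05 ± 0.06 (95% interval -0.17 to 0.06, adjusted p = 0.513, edgeR) and -0.12 without library 3 (adjusted p = 0.0841). Vmat was lower with construct 2 than in control RNAi (-0.18 ± 0.06, adjusted p = 0.0165), but this was not called without the first library of construct 2 (-0.15, adjusted p = 0.0725) or the second of control RNAi (-0.17, adjusted p = 0.0593). With construct 1 the difference from control RNAi was -0.09 ± 0.06 (adjusted p = 0.248). Against control, Vmat was higher in control RNAi (0.26 ± 0.06, adjusted p = 0.00146) and with construct 1 (0.17 ± 0.06, adjusted p = 0.039), the latter call being lost on leaving out any 1 of the 6 libraries (adjusted p from 0.06 to 0.128). Of 12 alternatives, 4 kept the construct 1 call. Over the alternatives that left out no library, its change went as low as 0.09 and its adjusted p as high as 0.181. In the same comparisons with control, 10 of 12 neuronal markers were higher in control RNAi and 10 of 12 with construct 1 (median log2 fold changes 0.52 and 0.34), and none was lower. Of all tested genes, 20.9% and 12.8% were higher in these comparisons. With construct 2 against control, 7 of 12 neuronal markers were higher and none lower (median 0.30), where 18.3% of all tested genes were higher. Vmat and DAT were not called there (0.08 and 0.08, adjusted p = 0.298 and 0.33, edgeR). Sums of the neuronal markers were 7541 to 7907 CPM in control RNAi, 7013 to 7202 CPM for construct 1 and 6169 to 7203 CPM for construct 2. In control they were 5505 to 5660.1 CPM. The part of the neuronal markers in the Vmat and DAT changes was not tested. Exons of CG13330 lie opposite 26.2% of the Vmat exon length, and CG13330 was at 0.469 to 1.15 CPM in the group means.

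DAT, the membrane transporter gene, had the narrowest range. It was at 17.8, 16.2 and 17.9 CPM in control, 18.3, 17.4 and 18.0 CPM with dpp overexpression and 19.8, 19.1 and 19.0 CPM in control RNAi. With construct 1 the level was 19.1, 18.4 and 18.6 CPM, and with construct 2 it was 18.9, 17.1 and 18.6 CPM. Every group overlapped its neighbour in the order of means. The change with dpp overexpression was 0.05 ± 0.05 (95% interval -0.07 to 0.17, adjusted p = 0.533, edgeR) and 0.05 without library 3 (adjusted p = 0.607). Against control RNAi, DAT differed by -0.04 ± 0.06 with construct 1 (-0.17 to 0.08, adjusted p = 0.654) and by -0.09 ± 0.06 with construct 2 (-0.21 to 0.04, adjusted p = 0.254). Control RNAi was higher than control by 0.16 ± 0.06 (adjusted p = 0.0263), a call lost without the first or second control RNAi library or the second control library (adjusted p from 0.0544 to 0.144) and with library totals as the only scaling (0.07).

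**Figure D2:**
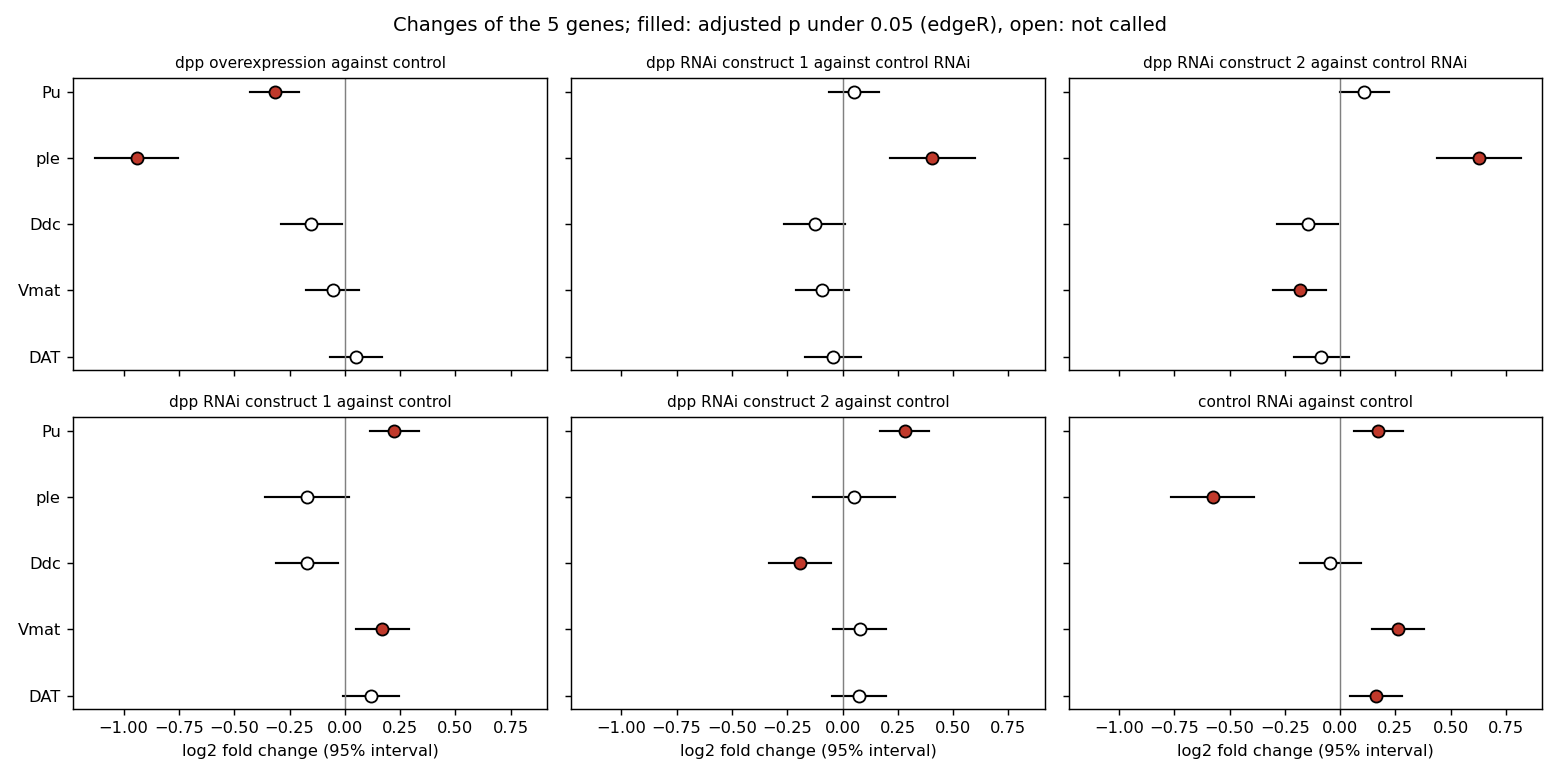
log2 fold changes (horizontal axes) of the 5 genes in 6 comparisons, as points with 95% intervals from edgeR; filled points passed an adjusted p of 0.05 and open points did not. ple lies at -0.94 with dpp overexpression and at 0.41 and 0.63 with the constructs against control RNAi, but at -0.17 and 0.05 with the same constructs against control.

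The number of the 5 genes called in each comparison is given here beside the share of all tested genes called. With dpp overexpression, 2 of the 5 genes were lower (Pu and ple), none was higher and 3 were not called. The background was large, since 29.6% of the 10668 tested genes were called in this comparison, 13.4% higher and 16.2% lower. Groups did not overlap for the same 2 of 5 genes, against 45.7% of tested genes. With construct 1 against control RNAi, 1 of 5 was called, ple, which was higher, at a background of 25.7% (13.1% higher, 12.6% lower). There, 3 did not overlap (ple, Ddc and Vmat), against 41.9%. With construct 2, ple was called higher and Vmat lower, at a background of 41.3% (21% higher, 20.3% lower), and 4 did not overlap (all but Ddc), against 53.5%. None of the 5 was called between the constructs by edgeR (1 had an unadjusted p under 0.05, ple, and DESeq2 called 0), at a background of 12% (5.67% higher, 6.36% lower), and 1 did not overlap (Vmat), against 31.5%. Against control, construct 1 was higher in 2 of 5 (Pu and Vmat), at a background of 24.6% (12.8% higher, 11.7% lower), and did not overlap in 4 (all but ple), against 44.4%. Construct 2 was higher than control in Pu and lower in Ddc, at a background of 36.2% (18.3% higher, 17.9% lower), and did not overlap in these 2, against 53.9%. Control RNAi was higher than control in 3 (Pu, Vmat and DAT) and lower in ple, at a background of 45.2% (20.9% higher, 24.3% lower), and did not overlap in these 4, against 62.2%. With 5 genes and backgrounds of this size, the counts are given as a description and nothing is read from them.

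Whether a gene changed differently with overexpression than under a dpp RNAi label was tested as a difference between changes. For ple the change with dpp overexpression against control was lower than that with construct 1 against control RNAi by -1.35 ± 0.13 (adjusted p = 2.33e-06, edgeR), and lower than that with construct 2 by -1.57 ± 0.13 (adjusted p = 2.77e-07). For Pu these differences were -0.37 ± 0.07 (adjusted p = 0.00143) and -0.43 ± 0.07 (adjusted p = 0.000302). In each test these 2 of 5 were called, both lower; the first called 30.8% of all tested genes (14.1% higher, 16.7% lower) and the second 42.3% (20.4% higher, 21.9% lower). Differences for Ddc were -0.03 and -0.01, with 95% intervals of -0.22 to 0.17 and -0.20 to 0.19. Those for Vmat and DAT lay between 0.04 and 0.14 and were not called. In both tests the construct is measured against control RNAi, in which ple was below control and Pu above it (0.17, adjusted p = 0.0137, edgeR).

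Ratios of counts within a library do not depend on how libraries are scaled. The log2 ratio of ple to Ddc was -2.42, -2.30 and -2.55 with dpp overexpression and -1.52, -1.64 and -1.75 in control. It was -2.33, -2.23 and -1.96 in control RNAi, -1.43, -1.80 and -1.70 with construct 1, and -1.12, -1.64 and -1.42 with construct 2. Overexpression and control did not overlap, nor did either construct and control RNAi. The difference was -0.79 ± 0.10 with dpp overexpression, 0.53 ± 0.16 with construct 1 and 0.78 ± 0.19 with construct 2 (SE). For ple to DAT the differences were -0.995 ± 0.092, 0.45 ± 0.12 and 0.71 ± 0.11, again without overlap. For ple to Pu they were -0.62 ± 0.08, 0.35 ± 0.15 and 0.52 ± 0.13, with overlap for construct 1. The ratio of Vmat to DAT, the pair of transporters, differed by -0.11 ± 0.07, -0.05 ± 0.04 and -0.10 ± 0.07, with overlap in all 3 comparisons. With 3 libraries against 3, the smallest p of a two-sided exact permutation test is 0.1; the 8 ratios without overlap reached it and the other 4 gave exact p from 0.2 to 0.4, and over the 12 tests the adjusted exact p lay between 0.15 and 0.4.

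**Figure D3:**
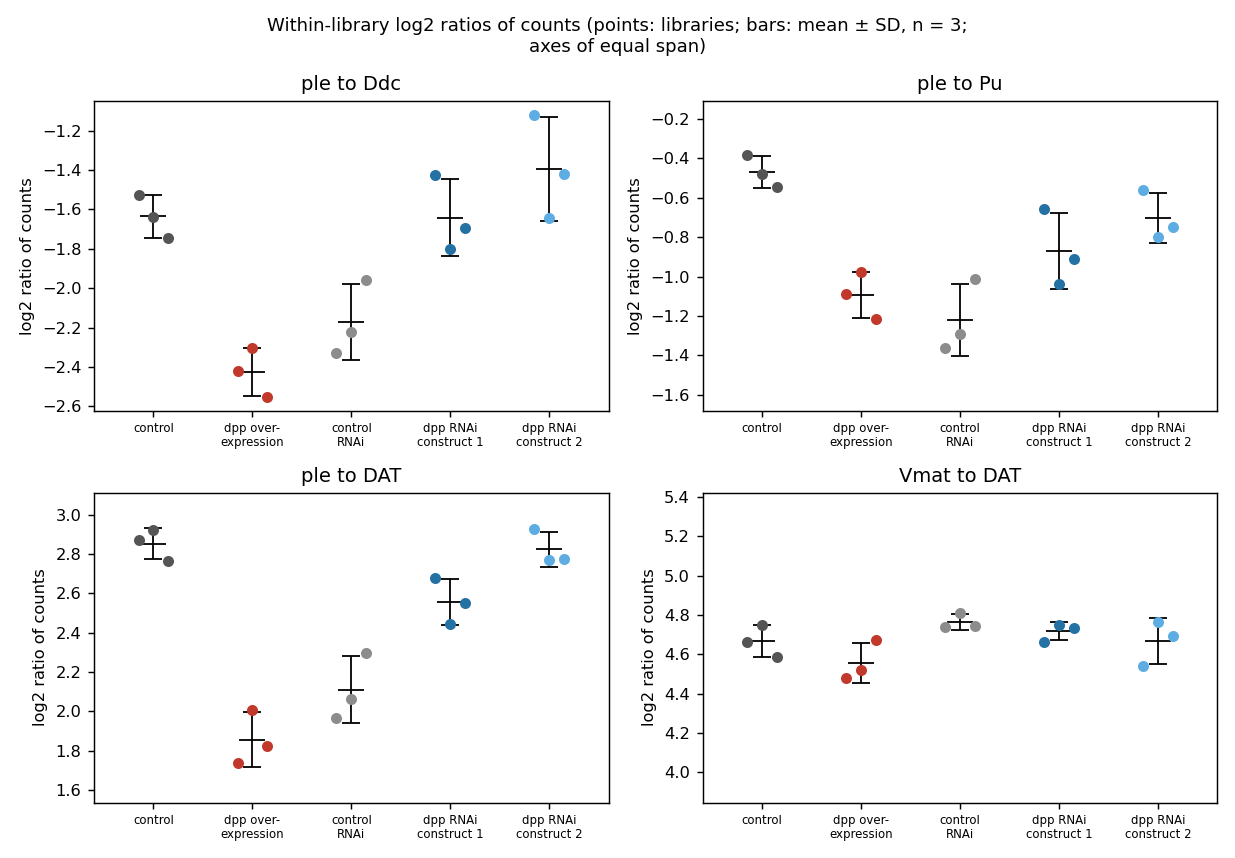
Within-library log2 ratios of counts (vertical axes of equal span) for ple to Ddc, ple to Pu, ple to DAT and Vmat to DAT in 5 groups (horizontal axis); points are libraries and bars are mean ± SD of 3 libraries. The mean of ple to Ddc with dpp overexpression differs from control by -0.79, whereas Vmat to DAT differs by -0.11.

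Genes around the 5 in the pathway were followed as lists, whose counts stand against the shares of all tested genes given above: 16.2% lower and 13.4% higher with dpp overexpression, 12.6% and 13.1% with construct 1, and 20.3% and 21% with construct 2 against control RNAi. In the biopterin and pterin pigment list of 7 tested genes, dpp overexpression gave 1 higher, 2 lower and 4 not called (median log2 fold change -0.06, against -0.01 over all tested genes). pr, which acts after Pu in tetrahydrobiopterin synthesis, fell from 71.0 to 54.5 CPM (-0.38 ± 0.06, adjusted p = 8.02e-05, edgeR), and se, which serves eye pigment synthesis, fell from 53.3 to 26.3 CPM (-1.04 ± 0.17, adjusted p = 0.000652; -1.33 and adjusted p = 1.99e-08 without library 3). The higher gene was mal (0.25 ± 0.08, adjusted p = 0.0241), named after its values were seen. Dhpr, which regenerates the cofactor, was at 56.4 CPM against 60.0 CPM and was not called (-0.09, adjusted p = 0.22). Against control RNAi, construct 1 gave 1 higher gene, 1 lower and 5 that passed neither way, and construct 2 gave 1, 3 and 3 (medians -0.00459 and -0.02). Dhpr rose with both constructs (0.27 ± 0.05, adjusted p = 0.00153; 0.34 ± 0.05, adjusted p = 9.78e-05), while cl, an eye pigment gene, fell (-0.15 ± 0.05, adjusted p = 0.0433; -0.25 ± 0.05, adjusted p = 0.00126). Dhpr was also higher and cl also lower with both constructs against control. pr and se were lower with construct 2 as well, against control RNAi (-0.20 ± 0.06 and -0.65 ± 0.18, adjusted p = 0.0106 and 0.0118, edgeR). They were also lower with construct 2 against control (-0.27 and -0.55, adjusted p = 0.00172 and 0.0286). With construct 1 neither was called against either control group.

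Tyrosine is used up by breakdown as well as by dopamine synthesis. Of 4 tested genes for tyrosine supply and breakdown, 2 were lower and 2 not called with dpp overexpression (median -0.44), where 29.6% of all tested genes were called. CG1461, the tyrosine aminotransferase gene (Tat), fell from 609 to 369 CPM (-0.72 ± 0.11, adjusted p = 0.00024, edgeR), and Faa, for the last step of tyrosine breakdown, fell by 0.49 ± 0.12 (adjusted p = 0.00677). Without overexpression library 3, which held the lowest of the 3 values for both, these changes were -0.56 and -0.34 (adjusted p = 3.44e-06 and 0.00382). hgo, the homogentisate dioxygenase gene, was at 90.6 CPM against 118 CPM and was not called (-0.38, adjusted p = 0.064; -0.21 and adjusted p = 0.123 without library 3), although DESeq2 called it. With construct 1 against control RNAi 1 of 4 was higher and 3 were not called, and with construct 2, 3 were higher and 1 was not called (medians 0.04 and 0.47), where 41.3% of all tested genes were called. hgo rose with both (0.71 ± 0.15, adjusted p = 0.00476; 1.21 ± 0.15, adjusted p = 6.23e-05). With control libraries as the reference, construct 1 was lower in hgo (-0.79, adjusted p = 0.00213) and construct 2 was not called (-0.29, adjusted p = 0.14). CG1461 and Faa, the other genes higher with construct 2, were not called with it against control (-0.05 and 0.13, adjusted p = 0.752 and 0.439, edgeR). Control RNAi was itself lower than control in CG1461, hgo and Faa (-0.45, -1.50 and -0.41, adjusted p = 0.00526, 7.49e-06 and 0.013). The remaining tested gene of the list, Hn, was higher there (0.27, adjusted p = 0.0216).

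The list named dopamine conjugation and oxidation holds genes mostly of cuticle and pigment, and not all of them act on dopamine itself. Of its 6 tested genes, 4 were lower, none was higher and 2 were not called with dpp overexpression (median -0.59), where 29.6% of all tested genes were called. b, which supplies the beta-alanine that is joined to dopamine, fell from 85.0 to 42.9 CPM (-0.98 ± 0.12, adjusted p = 3.04e-05, edgeR). e, which joins them, fell by 0.78 ± 0.09 (adjusted p = 1.71e-05), and laccase2, a phenol oxidase gene of cuticle hardening, fell by 0.54 ± 0.14 (adjusted p = 0.0118). Without library 3, b was at -0.90, e at -0.71 and laccase2 at -0.38, all still called, and t became the fifth lower gene (-0.39, adjusted p = 0.00827). Dat, whose symbol is a synonym of more than 1 gene in the annotation, fell by 0.65 ± 0.06 (adjusted p = 8.9e-07). Against control RNAi, construct 1 gave 1 higher gene, 1 lower and 4 without a call, and construct 2 gave 3 higher and 3 without a call (medians -0.08 and 0.47), at the background of 41.3%. The lower gene with construct 1 was y, a pigmentation gene named after its values were seen, at only 1 to 5 counts per library (-1.37 ± 0.48, adjusted p = 0.0456), and DESeq2 did not call it. Dat rose with both (0.61 ± 0.06 and 0.62 ± 0.06, adjusted p = 1.32e-05 and 4.57e-06), but against control it was lower with both (-0.22 and -0.21, adjusted p = 0.0175 and 0.0148). With construct 2 against control RNAi, b and e rose (0.95 ± 0.12 and 0.75 ± 0.09, adjusted p = 5.22e-05 and 3.36e-05). Both also rose against control (0.54 ± 0.12 and 0.82 ± 0.09, adjusted p = 0.00313 and 1.45e-05). With construct 1 neither was called against control RNAi (0.30 and -0.25, adjusted p = 0.085 and 0.0796) or control (-0.11 and -0.17, adjusted p = 0.575 and 0.215). Construct 1 was lower than construct 2 in both genes (-0.65 and -0.99, adjusted p = 0.00455 and 1.63e-05, edgeR).

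Most of the genes for other monoamines act in neurons. Of 7 tested genes for the synthesis and transport of other monoamines, 1 was higher, none was lower and 6 were not called with dpp overexpression (median 0.08), where 29.6% of all tested genes were called. prt, which encodes a vesicular transporter related to Vmat, was the higher one, at 17.8 against 14.4 CPM (0.30 ± 0.08, adjusted p = 0.00974, edgeR). Against control RNAi, construct 1 gave 1 higher gene, 1 lower and 5 without a call, and construct 2 gave 1, 5 and 1 (medians -0.10 and -0.34). prt fell by 0.58 ± 0.09 with construct 2 (adjusted p = 0.000124), and Tbh, for octopamine synthesis, fell by 0.35 ± 0.07 (adjusted p = 0.000645). SerT, the serotonin transporter gene, fell with both constructs (-0.31 ± 0.08 and -0.35 ± 0.08, adjusted p = 0.00867 and 0.00222), and Hdc, for histamine synthesis, rose with both (0.27 and 0.21, adjusted p = 0.0167 and 0.0354). Against control, neither SerT nor Hdc was called with either construct (adjusted p from 0.28 to 0.992).

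None of the 4 dopamine receptor genes was called with dpp overexpression by edgeR (median 0.01, adjusted p from 0.145 to 0.95; 0 of 4 had an unadjusted p under 0.05 and 0 of 4 were called by DESeq2). Without overexpression library 3, DopEcR was called lower (-0.21, adjusted p = 0.0119). Against control RNAi, 1 was lower and 3 were not called with construct 1, and 3 were lower and 1 was not called with construct 2 (medians -0.13 and -0.38), where 25.7% and 41.3% of all tested genes were called. DopEcR, a receptor for dopamine and ecdysone, was lower with both (-0.26 ± 0.07, adjusted p = 0.0101; -0.52 ± 0.07, adjusted p = 3.13e-05) and against control was called with neither (0.11 and -0.16, adjusted p = 0.276 and 0.084). D2R fell with construct 2 (-0.47 ± 0.08, adjusted p = 0.000478; -0.45 against control, adjusted p = 0.000673), as did DopR2 (-0.28 ± 0.06, adjusted p = 0.00216; -0.22 against control, adjusted p = 0.0113). The symbols DopR and D2R are each a synonym of more than 1 receptor gene in the annotation.

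Of 4 tested regulators and neighbours of ple and Ddc, 1 was higher, 1 lower and 2 not called with dpp overexpression (median -0.15). grh encodes a transcription factor known to act on Ddc in the epidermis and fell from 71.4 to 47.1 CPM (-0.59 ± 0.08, adjusted p = 4.95e-05, edgeR). Hr38, an orphan nuclear receptor gene, rose from 19.8 to 31.9 CPM (0.68 ± 0.10, adjusted p = 0.000146). Catsup, whose product is a known inhibitor of tyrosine hydroxylase, was not called (-0.05, adjusted p = 0.472), nor was amd, a relative of Ddc beside it on the chromosome (-0.25, adjusted p = 0.13). With construct 1 against control RNAi none of the 4 was called by edgeR (median -0.13, adjusted p from 0.195 to 0.565; 0 of 4 had an unadjusted p under 0.05 and 0 of 4 were called by DESeq2). With construct 2, grh was higher (0.35 ± 0.08, adjusted p = 0.00385), Hr38 lower (-0.41 ± 0.11, adjusted p = 0.00792) and 2 were not called (median 0.04). The direction for Hr38 turned with the reference, since against control it was higher with both constructs (0.56 and 0.36, adjusted p = 0.00194 and 0.0199). For grh the changes against control were 0.01 with construct 1 (adjusted p = 0.952) and 0.28 with construct 2 (adjusted p = 0.0145).

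**Figure D4:**
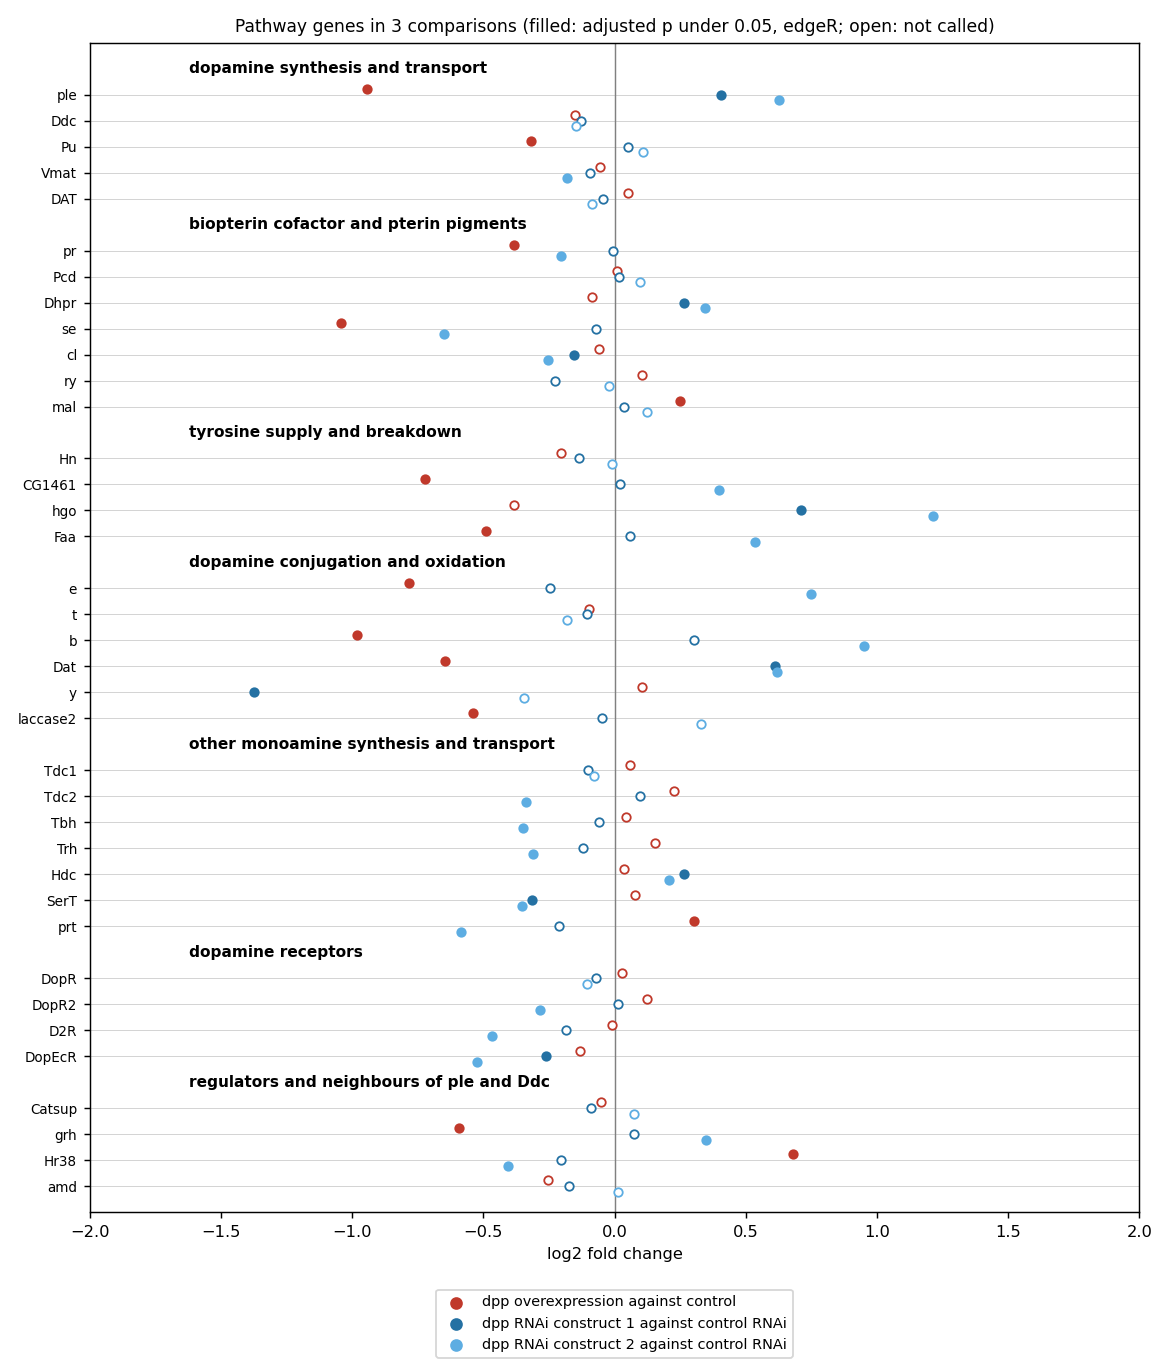
log2 fold changes (horizontal axis) of the 5 genes and of the other tested pathway genes, grouped by list (vertical axis), with dpp overexpression against control and with each dpp RNAi construct against control RNAi; filled points passed an adjusted p of 0.05 (edgeR) and open points did not. In the conjugation and oxidation list 4 of 6 genes are filled to the left of 0 with dpp overexpression, while none of the 4 dopamine receptors is.

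Markers of other tissues moved in the same comparisons, and their part in the changes of ple and Pu was not tested. With dpp overexpression, 7 of 10 tested cuticle and epidermis markers were lower, 1 was higher and 2 had no call, where 29.6% of all tested genes were called and 16.2% were lower. The summed level of the 12 cuticle and epidermis markers in the files was 171 to 182 CPM with overexpression against 441 to 459.9 CPM in control, without overlap, and the median log2 fold change of the tested ones was -0.51, and -0.31 without library 3, where 12 were tested. Cpr65Au, a cuticle protein gene, carried most of that sum, with 366 CPM in control and 119 CPM with overexpression, and the other 11 summed to 52.6 to 63.2 CPM against 81.0 to 84.6 CPM. Of 12 neuronal markers 1 was higher, 1 lower and 10 were not called, and their sums overlapped through library 3 alone (5136, 4936 and 6271 against 5505 to 5660.1 CPM). Without library 3, 4 of the 12 were lower and none was higher. Leaving out 1 library at a time, 2395 to 3463 of all genes were called in this comparison, against 3156 in the main fit. Sums of 8 glial markers were 1911 to 1969 against 2156 to 2214 CPM, with 4 lower and 4 not called, or 1 higher, 4 lower and 3 not called without library 3. The 14 sarcomere markers had 3 higher, 2 lower and 9 not called, with overlapping sums (9274 to 11182 against 9102 to 10341 CPM), and without library 3 they had 1 higher and 13 not called. Markers of body regions summed to 62.7 to 75.8 against 87.5 to 88.3 CPM, with 3 of 6 tested lower and none higher, or 2 of 6 lower without library 3. Photoreceptor markers had 1 of 8 lower and 7 not called, with overlap again through library 3 alone (64835, 64981 and 76553 against 69626 to 76376 CPM), and without it 3 of 8 were lower. Haemocyte markers had 2 of 6 higher and 4 not called, with overlap through library 3 alone (531, 575 and 314 against 441 to 516 CPM), and without it 3 of 6 were higher. Fat body markers had 2 higher, 1 lower and 5 not called of 8, or 3, 2 and 3 without library 3 (2699.7 to 3061 against 2121 to 2273 CPM). None of the markers in the files had 0 counts in all 15 libraries.

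Control RNAi was lower in sarcomere markers than every other group, and lower in body region markers than control and both constructs, where its sums overlapped those of dpp overexpression. Sums of the 14 sarcomere markers lay between 4358 and 4499.8 CPM in control RNAi, against 7681 to 12129.7 CPM for construct 1 and 9543 to 13258 CPM for construct 2, and 13 of 14 were higher with either construct. All 14 were lower in control RNAi than in control, where 24.3% of all tested genes were lower. Of all tested genes, 13.1% were higher and 12.6% lower with construct 1 against control RNAi. With construct 2 these shares were 21% and 20.3%, and the marker counts of the constructs here stand against them. The body region markers had 4 of 6 tested higher with either construct, and their sums were 60.4 to 73.8 CPM in control RNAi, against 82.1 to 101.7 CPM for construct 1 and 90.7 to 101 CPM for construct 2. Cuticle and epidermis markers summed to 363 to 402 CPM in control RNAi, against 465 to 536 CPM for construct 1 and 519 to 561 CPM for construct 2, with 3 of 10 higher and none lower with construct 1 and 3 higher and 1 lower with construct 2. Neuronal markers had 2 of 12 lower and none higher with construct 1 and 7 lower and 1 higher with construct 2 (sums of 7541 to 7907 CPM in control RNAi, against 7013 to 7202 CPM for construct 1 and 6169 to 7203 CPM for construct 2). Glial markers gave 2 higher and 5 lower of 8 with construct 1 and 2 higher and 1 lower with construct 2. Photoreceptor markers gave 1 and 5 lower of 8, haemocyte markers 1 and 2 higher of 6, and fat body markers 1 higher and 2 lower, then 2 higher and 2 lower, of 8. The fat body sums were 5828 to 6749 CPM in control RNAi, 4588 to 5440 CPM for construct 1 and 5710 to 5851 CPM for construct 2. In control they were 2121 to 2273 CPM.

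**Figure D5:**
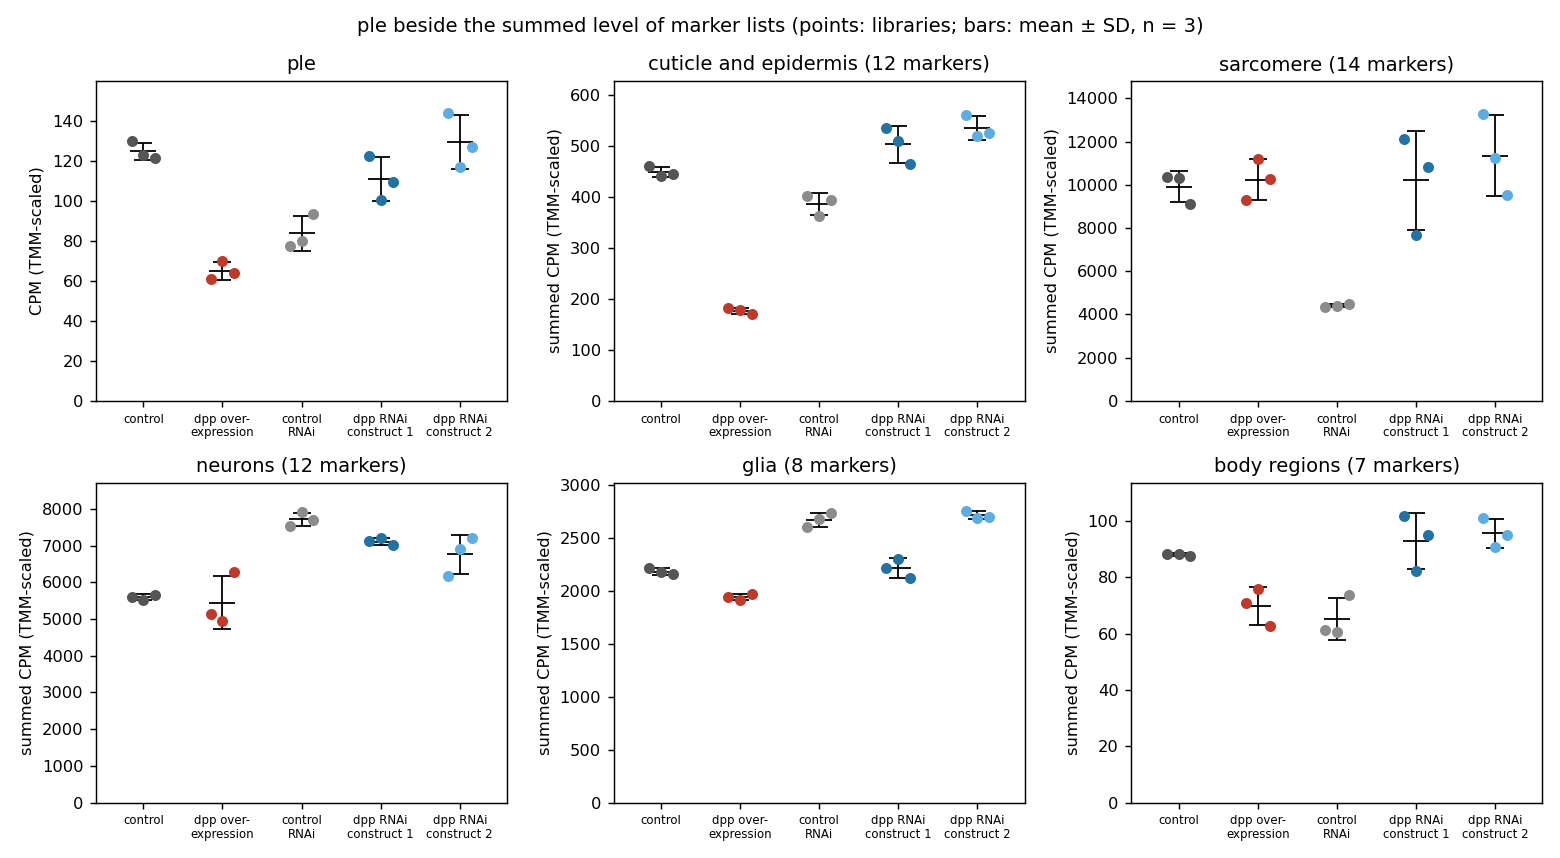
CPM of ple and summed CPM of 5 marker lists (vertical axes, starting at 0) in the 15 libraries of 5 groups (horizontal axis); points are libraries and bars are mean ± SD of 3 libraries. The cuticle and epidermis sum is lowest with dpp overexpression (171 to 182 CPM), and the sarcomere sum is lowest in control RNAi (4358 to 4499.8 CPM).

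Genes of like pattern were sought for ple and Pu, whose highest and lowest group means differed by 0.99 and 0.60 in log2 CPM; for Ddc, Vmat and DAT this difference was 0.19, 0.32 and 0.16, under the limit of 0.5 that was set. Likeness was the root mean square difference of centred log2 CPM over the 15 libraries, which share their groups, depth and tissue make-up. The 3 genes nearest to ple were CG9990 (0.09), CG10237 (0.11) and Tsp42Ei (0.12). CG9990, listed as snu in the annotation, was at 338 ± 14.6 CPM in control, 200.04 ± 8.9 CPM with dpp overexpression, 234 ± 10.6 CPM in control RNAi, 298 ± 38.2 CPM for construct 1 and 373 ± 25.6 CPM for construct 2. Its group means fall in the same order as those of ple, but the gene was chosen for its likeness to ple in these same libraries. Nearest to Pu were HmgZ (0.07), CG8329 (0.08) and CG42240 (0.08). HmgZ, a gene of the HMG box family of DNA-binding proteins, was at 179 ± 7.01 CPM in control and 148 ± 12.6 CPM with dpp overexpression.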

How the data were processed

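Counts per gene symbol were deposited by the authors as whole numbers, 1 file per library, with 5 HTSeq summary lines (14.5 to 20.9% of all entries) that were left out here. Per the submitters' processing notes, BWA, STAR and HTSeq were used with build dm3; versions, the role of each aligner, annotation and strand setting are not given in the sources used here. The analysis ran in R (4.3.3) and edgeR (4.0.16): filterByExpr (minimum count 10, 10668 genes kept), TMM scaling, and a robust quasi-likelihood fit over all 15 libraries with 1 mean per group and 10 residual degrees of freedom. p-values were adjusted by Benjamini-Hochberg over all tested genes and called under 0.05. SE were derived from the F statistic. Log2 CPM used a prior count of 2, and ratios a pseudocount of 0.5 on counts. The 5 genes, the gene lists and the tests were chosen with earlier results of these data known. Named genes were the 5, up to 4 genes per pathway list called in any of the 3 comparisons with the group's own control (smallest adjusted p), all regulators and neighbours, and 3 genes of like pattern per eligible gene; CG10561, CG13330 and dpp were named in addition. Hpd and Cs of the pathway lists and NimC1, PPO1, PPO2 and apolpp of the marker lists had no entry under those symbols. Exon lengths, overlaps and synonyms came from Ensembl release 115 and RefSeq. No pair of libraries in a group had counts equal within counting noise, so none was merged; this does not show that they are biological replicates. Leaving out overexpression library 3 for the pathway genes and marker lists, and Cpr65Au from the cuticle sum, was chosen after seeing the data. The analysis was tested on simulated counts. Alternatives were DESeq2 1.42.0, other scalings, no filter, a replicate block, only the 2 groups compared, and leaving out each library. Python 3.11.15 and matplotlib 3.10.9 drew the plots.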

Additional observations from a re-analysis of the deposited data

How the results depend on the processing

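For the 5 genes in the comparisons of dpp overexpression with control and of each construct with control RNAi, 174 of 180 alternative values kept their direction and their side of the threshold, 4 newly passed it, 2 no longer did, and none changed sign. The calls of ple and Pu in these comparisons were kept under every alternative run. On leaving out single libraries, Ddc ranged from -0.21 to -0.11 with dpp overexpression and from -0.21 to -0.091 with construct 2, and Vmat from -0.21 to -0.15 with construct 2. Ddc with construct 2 passed with DESeq2 (-0.16) and without the filter (-0.17); the cause was not tested. The number of the 5 genes called, on leaving out single libraries, ranged from 2 to 3 with dpp overexpression, 1 to 3 with construct 2 against control RNAi, 1 to 1 with construct 1 against control, 1 to 2 with construct 2 against control, and 3 to 4 for control RNAi against control. All genes called in the same fits numbered 2395 to 3463, 3410 to 3995, 1868 to 2141, 2806 to 3335 and 3908 to 4528, in that order. With library totals as the only scaling, 2 of 5 were called for control RNAi against control, where 1613 of all genes were higher and 4213 lower. Pu (0.08) and DAT (0.07) were no longer called. The share of calls that were higher went from 46.3 to 27.7% there, from 52.2 to 28.6% for construct 1 and from 50.5 to 29.4% for construct 2 against control. The median of all genes moved by at most -0.10. Without library 3 of dpp overexpression, 30 of 32 pathway genes around the 5 stayed on their side of the threshold, and t and DopEcR were newly called lower. Genes called between the constructs numbered 1283, and 619 to 1243 without single libraries.

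Replicate numbers were not used as pairs in the main fit. Against the group's own control, same-numbered deviations correlated by 0.00 to 0.19 (dpp overexpression), -0.03 to 0.02 (construct 1) and -0.02 to 0.16 (construct 2). For construct 2 against control they correlated by 0.08 to 0.25, and other pairs by -0.22 to 0.11. No comparison had every same-numbered pair over 0.1, which with 3 libraries a group does not show that pairing is absent. With the replicate block, ple was at -0.94, 0.40 and 0.63 in the comparisons with the group's own control. Pu was at -0.32, 0.05 and 0.11, and 3138, 2748 and 4415 genes were called. Depth was lowest with construct 1, and DAT had the fewest counts, 207 in 1 library.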
